A study of Gallus gallus with 18 samples.

Results

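The 10 genes described here belong to the response of cells to amino acid shortage and to the synthesis of serine: ATF4, ASNS, PSAT1, PHGDH, PSPH, MTHFD2, CHAC1, SLC7A5, SLC38A2 and STC2. They were found by gene symbol in the platform annotation, and all 10 of 10 were measured among 11528 named genes on 18226 probe sets. Only ATF4 had more than 1 probe set, and the brighter of its 2 stood for the gene.

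Liver RNA came from male Cobb 500 broiler chickens in 3 diet groups, with 6 arrays in each. The HI0 birds ate a soybean diet, and the HI7.5 and HI15 birds ate diets with 7.5% or 15% (75 or 150 g per kg) of a partially defatted meal made from larvae of Hermetia illucens, the black soldier fly, for 35 d. The meal took the place of soybean meal, soybean oil and wheat, and the submitters added synthetic amino acids so that each diet met the recommended levels of digestible essential amino acids. The labels do not state that every array is another bird or name its cage, so the p-values cover only the spread among these 18 samples. Signals are log2 values per probe set, so a difference of 1 is a doubling, and levels are compared between livers but not between genes, since probe sets differ in brightness.

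When an amino acid runs short, uncharged transfer RNA activates the kinase GCN2 (EIF2AK4), which phosphorylates the initiation factor eIF2 and slows translation in general while the messenger RNA of the transcription factor ATF4 is translated more. ATF4 protein then raises transcription of genes for amino acid synthesis, uptake and tRNA charging. The same route answers stress of the endoplasmic reticulum through the kinase PERK (EIF2AK3). The liver is a main site of amino acid breakdown and of serine and glycine turnover, and an array measures the RNA of these genes, not the activity of the kinases or the amount of ATF4 protein.

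The diets separated none of the 10 genes, while single livers of the same diet differed several-fold in some of them. In limma's test adjusted over all probe sets, 0 of the 10 members passed in any comparison, with adjusted p-values from 0.999 to 1.000. The background was the same, with 0% of all probe sets called in HI15 against HI0, 0% in HI7.5 against HI0, 0% in HI15 against HI7.5 and 0% in the F test of any difference among the diets. At an unadjusted p below 0.05, only PSAT1 (higher in HI7.5 than in HI0) and SLC38A2 (lower in HI15 than in HI7.5) were met. The meal diets share the HI0 livers in their comparisons, so these comparisons are not independent of each other.

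ATF4, the transcription factor of the response, had a like mean in HI0 and HI7.5 livers and a lower mean in HI15 livers. Its log2 signal ran from 11.00 over a median of 11.28 to 11.36 in HI0, from 10.93 over 11.19 to 11.71 in HI7.5, and from 10.84 over 10.96 to 11.31 in HI15. Of the 6 HI15 livers, 4 lay below all HI0 livers and 2 lay within their range. The HI15 mean of 11.02 ± 0.17 (SD, n = 6) stood against 11.24 ± 0.13 in HI0, a log2 difference of -0.23 ± 0.12 (SE). An exact permutation test of this difference over all 924 splits gave an unadjusted p of 0.0325, where limma, which pools the spread of the 3 diets, gave 0.0768. The dimmer ATF4 probe set showed a difference of -0.08 ± 0.16, and the mean of both sets gave -0.15 with an exact permutation p of 0.199. HI7.5 and HI0 differed by 0.00 ± 0.12 for the brighter set. The order of the means was HI0 and HI7.5 level with each other, then HI15, and no neighbours in that order differed beyond their spread in limma's adjusted test.

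ASNS, which makes asparagine from aspartate and glutamine and is a widely used readout of ATF4 activity in mammals, varied more between livers than almost any other gene. In HI0 its signal ran from 9.06 over a median of 9.54 to 9.84. In HI7.5 it ran from 8.44 over 9.66 to 10.70, and in HI15 from 8.61 over 9.88 to 10.67. Livers of both meal diets lay on either side of the HI0 range: in HI15, 4 of 6 livers lay above all HI0 livers and 2 below them, and in HI7.5, 3 lay above and 1 below. The diet means were 9.51 ± 0.31 (SD, n = 6) in HI0, 9.64 ± 0.83 in HI7.5 and 9.64 ± 0.75 in HI15. The differences from HI0 were 0.13 ± 0.34 (SE) for each meal diet, with a 95% confidence interval from -0.58 to 0.84.

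PHGDH, PSAT1 and PSPH carry out the 3 steps from the glycolytic intermediate 3-phosphoglycerate to serine. They did not share a pattern across the diets: PSAT1 was highest in HI7.5, PHGDH in HI15, and PSPH was nearly level.

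PSAT1, the aminotransferase of the middle step, showed the largest difference of the 10 genes relative to its error. Its signal ran from 11.15 over a median of 11.25 to 11.60 in HI0, from 11.32 over 11.80 to 11.96 in HI7.5, and from 11.30 over 11.42 to 11.83 in HI15. In HI7.5, 5 of 6 livers lay above all HI0 livers and all 6 above the HI0 mean, but the groups overlapped through 1 HI7.5 liver at 11.32 and 1 HI0 liver at 11.60. HI7.5 stood above HI0 by 0.43 ± 0.12 (SE), a ratio of 1.35 with a 95% confidence interval on the log2 scale from 0.17 to 0.68. The exact permutation test gave an unadjusted p of 0.00866, against 0.00216 as the smallest that 6 against 6 livers allow. Limma's unadjusted p was 0.00227, and its adjusted p was 0.999. PSAT1 was thus the 1 member of 10 higher at an unadjusted p below 0.05 in HI7.5 against HI0, where 1.03% of all probe sets were higher and 2.07% lower at that threshold. HI15 stood between, 0.22 ± 0.12 above HI0 and 0.21 ± 0.12 below HI7.5, and neither difference passed the unadjusted test.

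PHGDH, the dehydrogenase that opens the pathway, ran from 9.87 over a median of 10.22 to 10.34 in HI0 and from 10.05 over 10.42 to 10.54 in HI15. In HI7.5 it spread from 9.58 over 10.17 to 10.58. Of the HI15 livers, 4 lay above all HI0 livers, and the HI7.5 livers lay on both sides of the HI0 range. HI15 differed from HI0 by 0.21 ± 0.15 (SE) and from HI7.5 by 0.24 ± 0.15, and HI7.5 from HI0 by -0.03 ± 0.15. The difference between the meal diets was 0.13 without HI7.5 replicate 1 and 0.33 without HI7.5 replicate 2. The exact permutation p was 0.0801 for HI15 against HI0, and limma's unadjusted p was 0.177.

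PSPH, the phosphatase that releases free serine, was the steadiest of the 10 genes. Its signal ran from 13.18 over a median of 13.32 to 13.42 in HI0, from 13.17 over 13.34 to 13.47 in HI7.5, and from 13.04 over 13.34 to 13.43 in HI15. The groups overlapped over nearly their whole range. The 3 differences lay between -0.03 and 0.03, each with an SE of 0.09, and the 95% interval for HI15 against HI0 ran from -0.18 to 0.18.

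MTHFD2, a mitochondrial folate enzyme that uses the carbon unit released from serine, also overlapped between diets. It ran from 6.94 over a median of 7.34 to 7.51 in HI0, from 6.94 over 7.33 to 7.92 in HI7.5, and from 6.98 over 7.24 to 7.63 in HI15. In HI7.5, 2 livers lay above all HI0 livers and above all HI15 livers. The differences were -0.01 ± 0.16 (SE) for HI15 and 0.15 ± 0.16 for HI7.5 against HI0. Its sign in HI15 turned with the omission of any of 6 single livers.

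Of the 2 amino acid transporters, SLC38A2 (SNAT2, sodium-coupled uptake of small neutral amino acids) had its largest difference relative to the error between the meal diets, which did not pass the adjusted test. Its signal ran from 11.22 over a median of 11.54 to 11.77 in HI0, from 11.53 over 11.58 to 12.07 in HI7.5, and from 10.71 over 11.14 to 11.68 in HI15. In HI15, 4 of 6 livers lay below every HI7.5 liver and below every HI0 liver, while the other 2 lay within those ranges. The difference of HI15 from HI7.5 was -0.47 ± 0.15 (SE; 95% interval from -0.79 to -0.16), with a limma p of 0.00497 before adjustment and an exact permutation p of 0.0325. SLC38A2 was the 1 member lower in HI15 against HI7.5 at an unadjusted p below 0.05, where 1.17% of probe sets were lower and 1.99% higher. Against HI0 the difference was -0.28 ± 0.15 for HI15 and 0.19 ± 0.15 for HI7.5.

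SLC7A5 (LAT1), which exchanges large neutral amino acids such as leucine, ran from 8.63 over a median of 8.76 to 9.31 in HI0. In HI7.5 it lay in a narrow band from 8.93 over 9.10 to 9.20, and in HI15 it ran from 8.49 over 8.93 to 9.03. All 6 HI7.5 livers lay above the HI0 mean, and 5 HI0 livers lay below every HI7.5 liver, but the highest HI0 liver lay above them all. HI7.5 stood above HI0 by 0.24 ± 0.12 (SE), with a limma p of 0.0514 before adjustment. With 1 liver left out at a time, it ran from 0.20 without HI0 replicate 3 to 0.33 without HI0 replicate 4, the highest HI0 liver. The difference of HI15 from HI7.5 was -0.20 ± 0.12, with an exact permutation p of 0.0390 and an unadjusted limma p of 0.0975.

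CHAC1 and STC2 are targets of the stress response outside amino acid supply. CHAC1, an enzyme that breaks down glutathione, ran from 7.31 over a median of 7.67 to 7.97 in HI0, from 7.46 over 7.90 to 9.97 in HI7.5, and from 7.60 over 7.94 to 8.41 in HI15. A single HI7.5 liver, replicate 4 at 9.97, lay far above the other 17. HI7.5 stood above HI0 by 0.55 ± 0.29 (SE), and by 0.20 without that liver. HI15 stood above HI0 by 0.29 ± 0.29, and 3 of its 6 livers lay above all HI0 livers.

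STC2, a secreted glycoprotein that binds and inhibits the protease PAPP-A in mammals, was the 1 member below the median level of all probe sets. It ran from 5.90 over a median of 6.75 to 7.22 in HI0, from 5.59 over 6.22 to 7.18 in HI7.5, and from 6.22 over 7.04 to 7.30 in HI15. The 3 ranges overlapped, with 5 of 6 HI15 livers above the HI7.5 mean. HI15 stood above HI7.5 by 0.50 ± 0.25 (SE), with an unadjusted limma p of 0.0658.

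**Figure D1:**
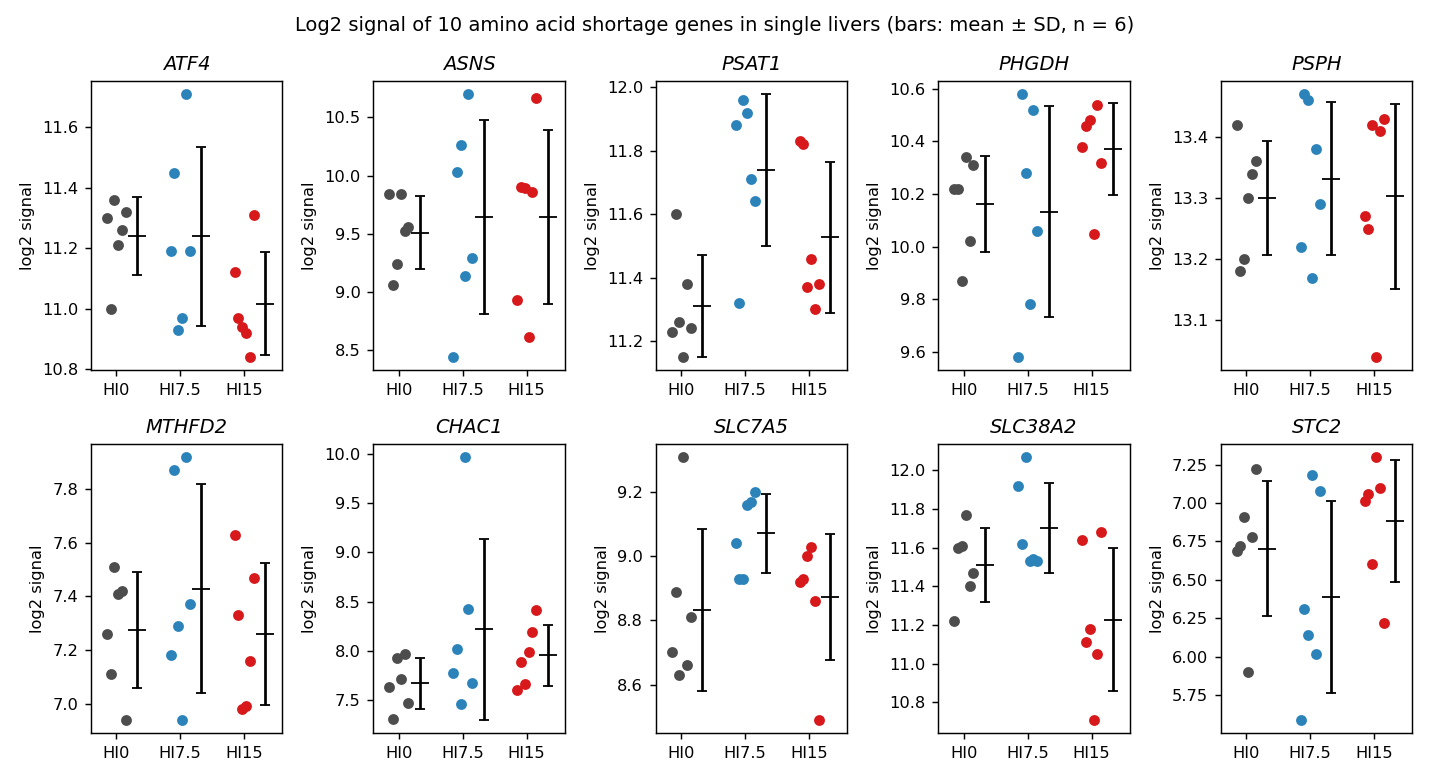
Log2 signal (vertical axes, each with its own scale) of the 10 genes in 18 livers, grouped by diet (HI0 grey, HI7.5 blue, HI15 red). Points are single arrays and bars show the mean ± SD of 6, and in every panel the points of the diets overlap. Relative to the standard error, the differences were largest for PSAT1 in HI7.5 against HI0 and for SLC38A2 in HI15 against HI7.5.

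The plot of single signals shows where the spread lies: ASNS, CHAC1 and PHGDH fan out in HI7.5, SLC7A5 closes up there, and ATF4 and SLC38A2 have a low cluster with 2 higher livers in HI15.

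Over the 10 members, the differences were of both signs. In HI15 against HI0, 7 were above 0 and 3 below, with a median of 0.09, while the median over all 11528 genes was 0.01 (51.8% above 0). None of the 10 had an unadjusted limma p below 0.05, where 1.34% of probe sets were higher and 1.8% lower. In HI7.5 against HI0, 7 were above 0 and 3 below, with a median of 0.14, against 0.00 over all genes. In HI15 against HI7.5, 2 were above 0, 7 below and ASNS at 0, with a median of -0.18, against 0.00 over all genes. The members' median absolute differences were 0.19, 0.17 and 0.22 in the 3 comparisons, against 0.08, 0.07 and 0.07 over all genes. Their median SD within diets was also larger, at 0.28 against 0.21, and its part in this was not tested. The members were chosen with earlier results of these data known, so these values are a description. In the F test of any difference among diets, PSAT1 (0.00846) and SLC38A2 (0.0168) had unadjusted limma p-values below 0.05, as had 2.87% of probe sets.

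**Figure D2:**
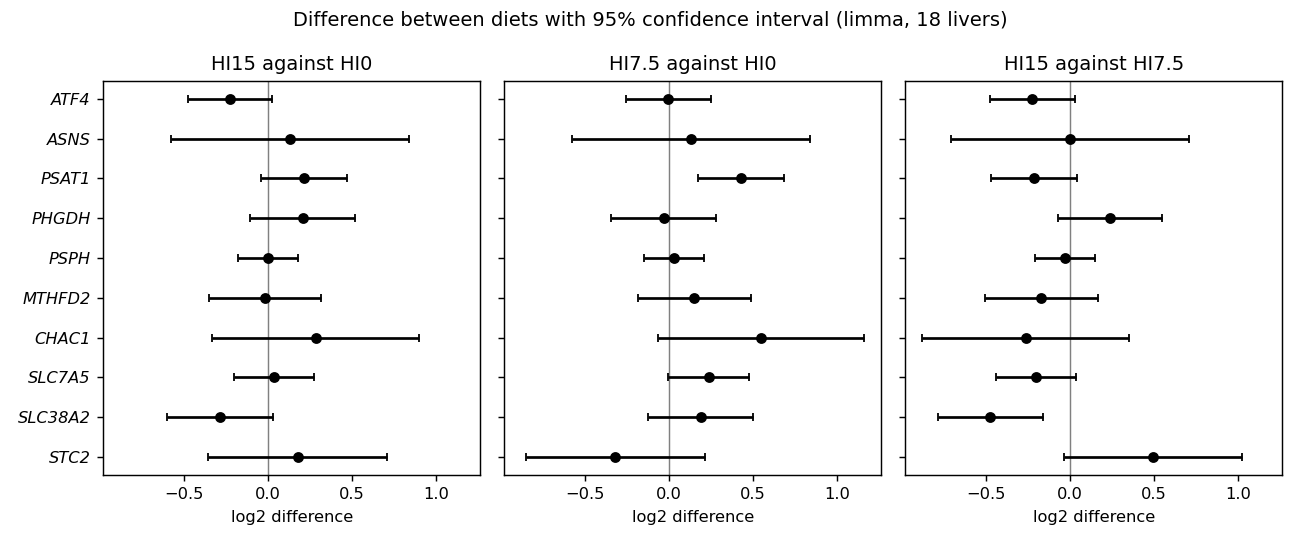
Differences in log2 signal (horizontal axis) between the diets for the 10 genes, with limma's 95% confidence intervals over 18 livers. The intervals of PSAT1 in HI7.5 against HI0 (0.17 to 0.68) and of SLC38A2 in HI15 against HI7.5 (-0.79 to -0.16) leave out 0, and those of ASNS and CHAC1 are the widest.

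The plot of intervals also shows how large a change these data could miss. The 95% interval lay within a 2-fold change either way for 10 of 10 members in HI15 against HI0 and for 9 of 10 in each of the other comparisons, the exceptions being CHAC1 in HI7.5 against HI0 and STC2 in HI15 against HI7.5. It lay within a 1.5-fold change for 6 of 10 in each comparison. On simulated data for HI15 against HI0, changes were planted in 200 probe sets drawn from all 18226. Limma's adjusted test found 97% of them where these were 2-fold, 66% where 1.5-fold and 6% where 1.3-fold. These rates are for probe sets at large and for 200 changes at once. The simulated noise was normal, independent between probe sets and equally wide in every diet, whereas the measured spread of the members differed between diets. The members had a median SD within diets of 0.28, against 0.21 over all genes, and no rate was computed for them.

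The spread between livers of one diet was the larger part of the variation of each gene. ASNS had an SD within diets of 0.67, larger than that of 99.4% of genes, and its highest liver was 4.79-fold above its lowest. CHAC1 had an SD of 0.58, larger than 99.0% of genes, with a 6.32-fold range. Without HI7.5 replicate 4, its SD was 0.31, larger than 86.8% of genes, and its range was 2.16-fold. STC2 had an SD of 0.50, larger than 98.1% of genes. PSPH lay at the other end, with an SD of 0.13, larger than 8.37% of genes, and a 1.35-fold range. Among the 43 genes within 0.5 log2 units of its bright signal, the median SD was 0.14. The SD of PSPH was larger than that of 37.2% of these, so its low spread was not unusual at that level. The other 6 members had SDs from 0.20 in SLC7A5 to 0.30 in MTHFD2, and the median of the 10 was 0.28, against 0.21 over all genes. Of the variance of ASNS, 1.04% lay between diets, and of that of PSAT1, the member with the highest share, 44.2%. The median share was 16.1% over the members and 7.25% over all genes, a description only, since the members were chosen with earlier results of these data known.

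Most of the 10 genes had a larger SD between livers in HI7.5 and HI15 than in HI0. In HI7.5, the SD was wider than in HI0 for 9 of 10 members, SLC7A5 being the exception, with a median ratio of 1.65, against 57.4% of all genes and a median ratio of 1.08. In HI15 it was wider for 7 of 10, with a median ratio of 1.27, against 40.9% of all genes and 0.89. For ASNS the SD was 2.65 times that of HI0 in HI7.5, a larger ratio than for 96.5% of genes, and 2.38 times in HI15, larger than for 97.3%. For CHAC1 in HI7.5 the ratio was 3.58, and it was 1.43 without replicate 4. With 1 liver left out at a time, 8 to 10 members were wider in HI7.5 and 6 to 9 in HI15. The differences in spread were not tested.

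**Figure D3:**
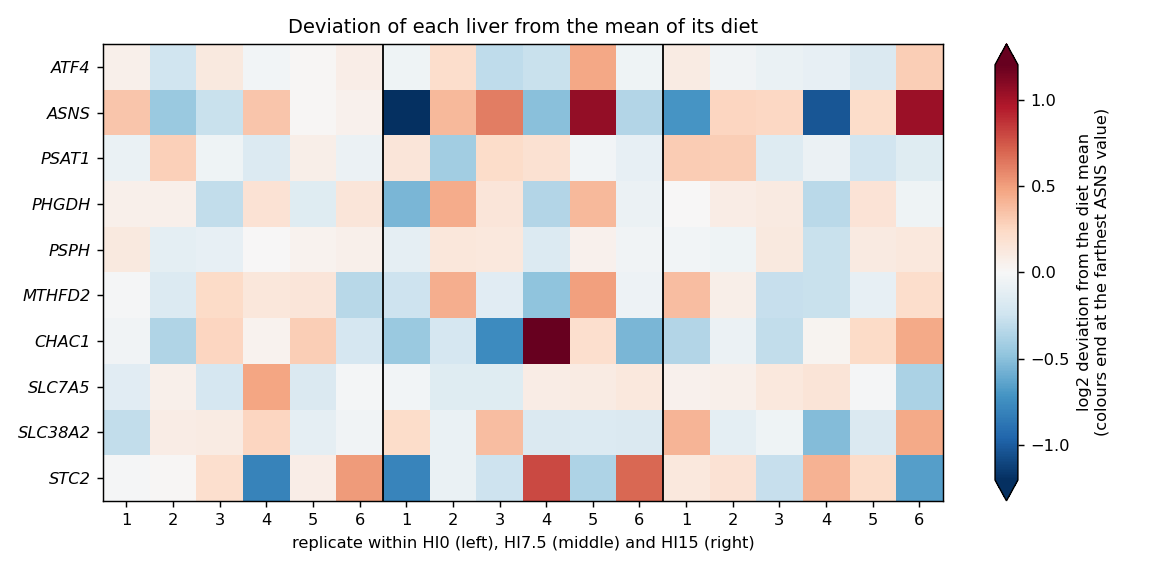
Log2 deviation of each of 18 livers (columns, by diet and replicate) from the mean of its diet for the 10 genes (rows), in red above and in blue below, with the colours ending at the farthest ASNS value. ASNS reaches -1.20 in HI7.5 replicate 1 and 1.06 in HI7.5 replicate 5, and PSPH stays pale throughout.

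The map of deviations shows that a liver low or high in ASNS was not low or high in every other member. HI7.5 replicate 1 had the lowest mean deviation over the 10 genes, -0.31, with ASNS at -1.20, STC2 at -0.80 and PHGDH at -0.55, yet PSAT1 at 0.14 and SLC38A2 at 0.22. HI7.5 replicate 5 had the highest, 0.22, with ASNS at 1.06, MTHFD2 at 0.49, ATF4 at 0.47 and PHGDH at 0.39. In HI15, ASNS was lowest in replicate 4 at -1.03, together with SLC38A2 at -0.52 and PSPH at -0.26, and highest in replicate 6 at 1.03. That last liver was also the lowest HI15 liver for SLC7A5 and STC2, with deviations of -0.38 and -0.66.

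To ask which members moved together between livers of the same diet, signals were centred on the diet mean and all 45 pairs were compared over 18 livers. A permutation test within diets, adjusted over the 45 pairs, called 4 pairs, with 3 of them among ASNS, PHGDH and PSPH. The same 4 pairs were those with r above 0.5, which is 8.89% of the 45, against 8.48% of all pairs of genes. ASNS followed PSPH with Pearson's r = 0.79 (permutation p = 0.0005, adjusted 0.0225; Spearman's rho = 0.80, adjusted 0.0328) and PHGDH with r = 0.74 (p = 0.00253, adjusted 0.0316; rho = 0.74, adjusted 0.0810). PHGDH followed PSPH with r = 0.69 (p = 0.00238, adjusted 0.0316; rho = 0.66, adjusted 0.120). By its brighter probe set, ATF4 followed MTHFD2 with r = 0.76 (p = 0.00281, adjusted 0.0316; rho = 0.76, adjusted 0.0328). Relations of the dimmer ATF4 set are not given here, so those of ATF4 hold for the brighter set only.

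These 4 relations, with ATF4 taken by its brighter set, had the same sign in each diet. Within HI0, HI7.5 and HI15, r was 0.84, 0.79 and 0.82 for ASNS with PSPH, 0.48, 0.92 and 0.55 for ASNS with PHGDH, 0.38, 0.88 and 0.78 for PHGDH with PSPH, and 0.28, 0.89 and 0.72 for ATF4 with MTHFD2. The calls did not hold under every omission of livers. Without the 2 livers farthest from the median of the first-named gene, r was 0.71, 0.54, 0.60 and 0.68 in the same order, and the adjusted permutation p was 0.121, 0.275, 0.201 and 0.198. These livers were HI7.5 replicate 1 and HI15 replicate 4 for both ASNS relations, HI7.5 replicates 1 and 4 for PHGDH with PSPH, and HI7.5 replicate 5 and HI15 replicate 5 for ATF4 with MTHFD2. They were picked by signals before centring. Their omission also narrows the range of the first gene and leaves fewer livers, so the drop cannot show that the calls rested on them. With 1 liver left out at a time, ASNS with PSPH stayed called in 15 of 18 cases and the other relations in 10 or 11, and r stayed between 0.63 and 0.84 for all 4. The omission of HI0 replicate 3, HI7.5 replicate 6 or HI15 replicate 4 left 0 of 45 pairs called. The mean signal of the hepatocyte markers had r = 0.59 with PHGDH, 0.58 with PSPH and 0.45 with ASNS (permutation p adjusted over 110 relations 0.204, 0.298 and 0.493), and their part in the relations among these 3 genes was not tested.

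**Figure D4:**
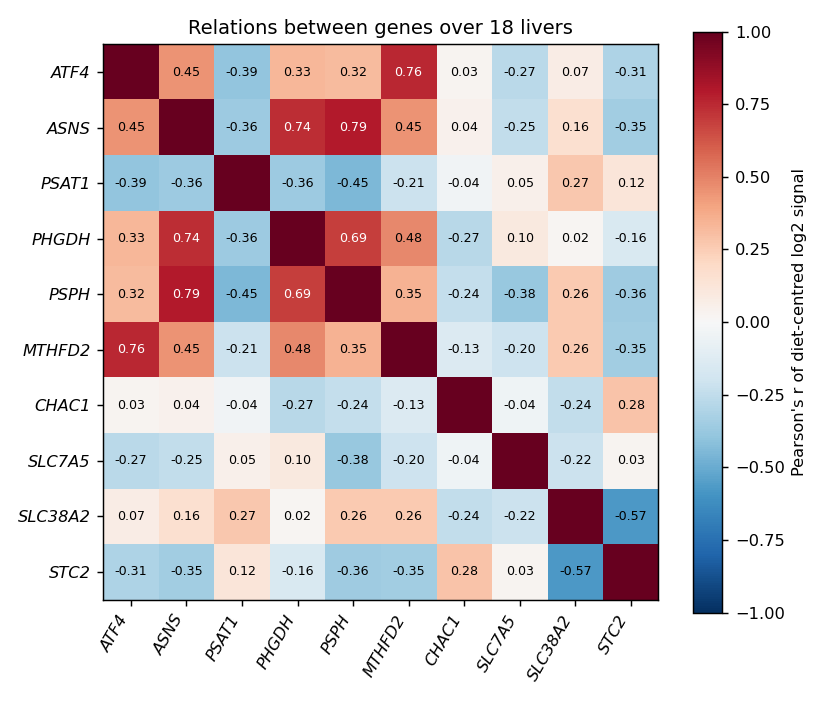
Pearson's r between the diet-centred log2 signals of the 10 genes over 18 livers, from -1 (blue) to 1 (red). The block of ASNS, PHGDH and PSPH (0.69 to 0.79) and the pair of ATF4 and MTHFD2 (0.76) stand out, and the row of PSAT1 is blue against them.

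PSAT1 had r below 0 with the other serine synthesis enzymes. Its r was -0.45 with PSPH, -0.36 with PHGDH, -0.36 with ASNS and -0.39 with ATF4, none of which passed the adjusted permutation test. The brighter set of ATF4 had r = 0.45 with ASNS, with 0.24 and 0.63 as its lowest and highest values when 1 liver was left out.

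CHAC1 had r between -0.27 and 0.28 with every other member over all 18 livers, but most of those values turned on HI7.5 replicate 4, its farthest liver. Without that liver r was 0.69 with ATF4, against 0.03 with it, 0.57 with MTHFD2, against -0.13, and 0.44 with ASNS, against 0.04. It was -0.48 with PSAT1, against -0.04, and -0.22 with STC2, against 0.28. With PSPH and PHGDH it was 0.15 and 0.08. Other livers mattered too: without HI7.5 replicate 3, r of CHAC1 with ATF4 was -0.15. With SLC38A2, r of CHAC1 ran from -0.40 without HI15 replicate 6 to -0.12 without HI7.5 replicate 3. No p-values are given for the values without single livers. Over all 18 livers, Spearman's rho of CHAC1 was 0.30 with ATF4, 0.23 with MTHFD2 and 0.18 with ASNS (adjusted permutation p = 0.579, 0.617 and 0.686). Among all pairs the lowest value was that of SLC38A2 with STC2, at r = -0.57 (permutation p = 0.0135, adjusted 0.121; rho = -0.54). Over the 45 pairs, 4 (8.89%) had r above 0.5, against 8.48% of all 66441628 pairs of genes, and the median r was 0.02, against 0.00. The share of pairs above 0.5 was thus close to that among genes at large.

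Over all 11528 genes, the highest r belonged to a non-member for each of the 10 members, so this was not particular to ASNS or ATF4. A search over so many genes yields high values by chance too, and no chance level was computed. Far negative values occurred as well, such as -0.92 for PHGDH with TSHB. For ASNS, the highest r over 18 livers was that of IARS (0.93), the isoleucyl-tRNA synthetase, and then of ALDH18A1 (0.91), which opens the synthesis of proline, ASPSCR1 (0.84), CCDC167 (0.81) and OVCH1 (0.81). In IARS and ALDH18A1 the same livers lay at the ends as in ASNS: HI7.5 replicate 1 had the lowest signal of the 18 (8.56 for IARS and 8.70 for ALDH18A1), and HI7.5 replicate 5 had the highest (10.46 and 11.28). Both genes were picked by their r with ASNS over these same livers, so the shared ends are not a separate finding. For ATF4, the nearest genes were SLC7A3 (0.85), a transporter of cationic amino acids, PNLDC1 (0.85), YTHDF2 (0.84), SLC7A11 (0.78), the cystine and glutamate exchanger, and CEBPB (0.77), a transcription factor. For MTHFD2 they were SLC7A3 (0.80), PDE4DIP (0.80), PPP1R15B (0.78), a subunit that directs the phosphatase of eIF2, THAP6 (0.77) and ABCF2 (0.76). The signal of SLC7A11 was dim, with diet means of 5.36 to 5.48, below the array medians of 7.23 to 7.31.

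**Figure D5:**
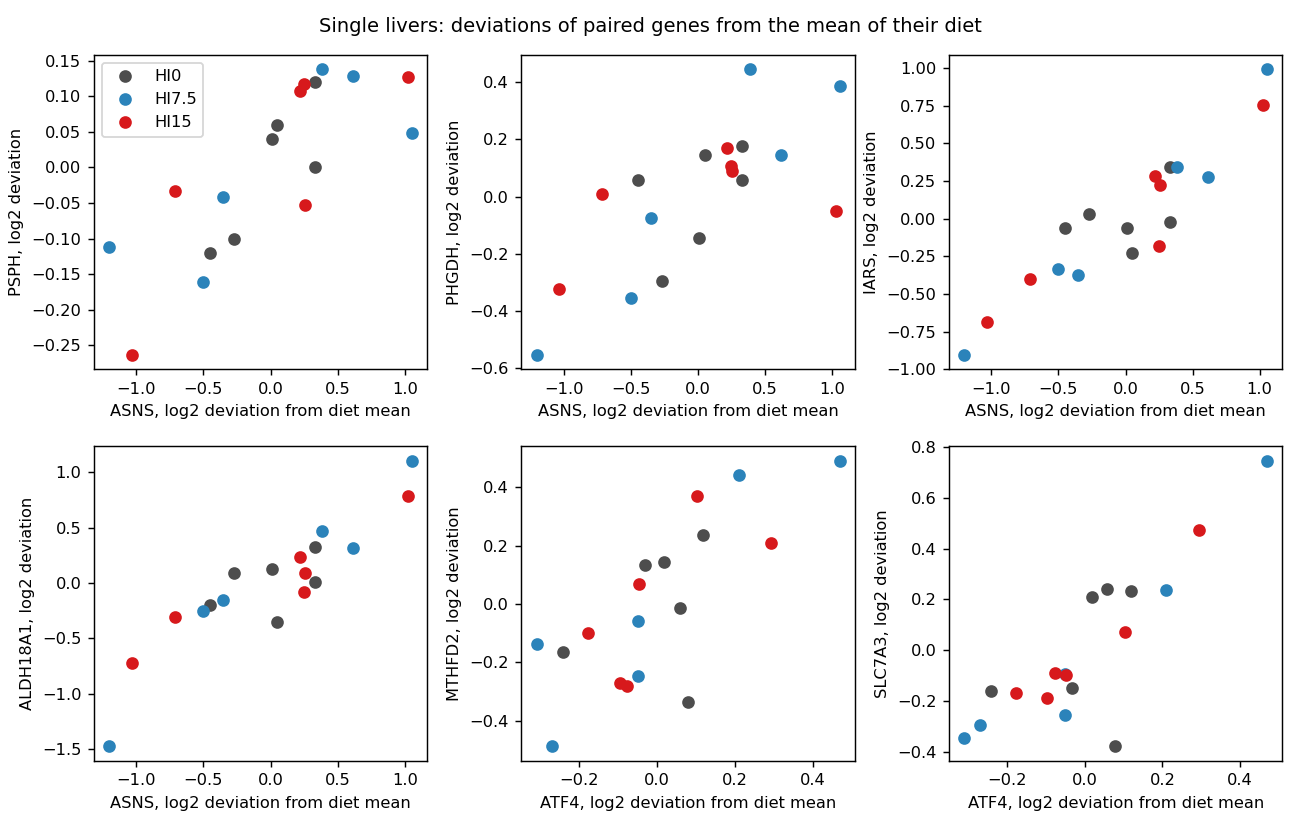
Deviations from the diet mean (log2) in 18 livers for ASNS against PSPH, PHGDH, IARS and ALDH18A1 and for ATF4 against MTHFD2 and SLC7A3, coloured by diet. ASNS and IARS lie close to a line (r = 0.93), and the ends of most panels are set by HI7.5 and HI15 livers.

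In the scatter of single livers the HI0 points fill the middle of the ASNS panels, since HI0 livers differed least in that gene. For PSAT1 the nearest genes were UACA (0.76), TP53BP2 (0.74), SLC7A10 (0.73), PPM1A (0.70) and LRRN3 (0.69), and for PSPH they were CCNY (0.83), ASNS (0.79), RP9 (0.74), ANKRD22 (0.74) and BTBD10 (0.73). For PHGDH they were ANAPC16 (0.82), MPP2 (0.80), HSPD1 (0.80), SRSF6 (0.78) and BCL7A (0.77). For SLC38A2 they were SPTLC2 (0.87), CHRNA5 (0.83), ANLN (0.80), RCN2 (0.80) and RNF13 (0.80). All these values are descriptions over the same 18 livers.

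Set against lists of related genes, ASNS was nearest to the tRNA synthetases. Of 14 measured synthetases, 6 had r above 0.5 with ASNS, with a median of 0.45, where 3.62% of all genes had r above 0.5 with it. Of 19 chaperones and folding enzymes of the endoplasmic reticulum, 5 did, with a median of 0.41, and DNAJC10 was highest at 0.64. STC2 went the other way, with 4 of these 19 below -0.5 (median -0.18, ERN1 lowest at -0.72). Of 18 sensing kinases and parts of eIF2, 7 had r below -0.5 with STC2 (median -0.34, PPP1R15B lowest at -0.67). The share of all genes below -0.5 with STC2 is not given here. Single genes near ASNS were the glycine transporter SLC6A9 (0.79) and the mitochondrial folate enzyme MTHFD1L (0.74), which also had r = 0.63 with PSPH and 0.61 with PHGDH. Their lists as a whole did not follow ASNS. The median r with ASNS was -0.02 over 17 other amino acid transporters, with SLC1A1 lowest at -0.66. Over 20 enzymes of serine, glycine and folate metabolism it was -0.07, with SDSL lowest at -0.47. Of 17 other amino acid transporters, 4 had r above 0.5 with ATF4, where 1.82% of all genes had, but the median of the list was -0.19 and SLC16A10 was lowest at -0.60. The cytosolic folate enzyme MTHFD1 had r = 0.62 with PSAT1. It was the 1 of 20 enzymes in its list above 0.5, with a list median of 0.01 and ALDH1L2 lowest at -0.42.

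Between the diets, the other genes of the pathway showed no call either. In each of 11 lists, 0 genes passed limma's adjusted test in any comparison, and the genes below an unadjusted p of 0.05 numbered 0 to 2 a list. A gene said to pass unadjusted had such a p in limma. In HI15 against HI0, 1.34% of all probe sets were higher and 1.8% lower at that threshold. The shares were 1.03% and 2.07% in HI7.5 against HI0, and 1.99% and 1.17% in HI15 against HI7.5. Differences in the next sentences are in the order HI15 against HI0, HI7.5 against HI0 and HI15 against HI7.5. Over all genes, 51.8%, 50.0% and 51.2% lay above 0 in that order. Genes of a list were measured in the same livers, so their signs are not independent, and counts of signs were not tested.

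Of 20 symbols for sensing kinases and parts of eIF2, 18 were measured, with medians of 0.04, 0.01 and 0.04 and 0 below an unadjusted p of 0.05. The smallest p-values were those of EIF2S1 (0.14) and the PERK gene EIF2AK3 (-0.16), then EIF2S1 (0.11) and PPP1R15B (0.12), then EIF2B4 (0.16) and EIF2AK2 (0.26). Of 25 stress transcription factors and feedback genes, 13 were measured, with medians of 0.01, 0.05 and -0.02. In HI15 against HI7.5 NFE2L2, a regulator of the oxidative stress response, stood at 0.23 (passing unadjusted) and SQSTM1 at -0.23. Against HI0 the genes named were SQSTM1 (-0.19) and XPOT (0.13) for HI15 and NFE2L2 (-0.19) and EIF4EBP1 (0.16) for HI7.5.

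Of 31 enzymes of serine, glycine and folate metabolism, 20 were measured, with medians of 0.07, -0.01 and 0.07. In HI15 against HI7.5, 18 of the 20 lay above 0, in HI15 against HI0 14 did, and 0 had an unadjusted limma p below 0.05. The named genes were MTHFD1 (0.21) and GCAT (0.17), then SARDH (0.17) and SHMT1 (0.12), then ALDH1L2 (0.42) and TYMS (0.19). Of 18 genes for asparagine, proline and related synthesis, 9 were measured, with medians of 0.02, -0.02 and 0.13. The glutamine synthetase gene GLUL stood at 0.49 ± 0.18 (SE; passing unadjusted) and GOT1 at 0.20 in HI15 against HI0. The argininosuccinate synthase gene ASS1 stood at -0.52 ± 0.24 (passing) and ASL at -0.14 in HI7.5 against HI0, and ASS1 stood at 0.54 (passing) and GLUL at 0.34 in HI15 against HI7.5.

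Of 38 tRNA synthetases, 14 were measured, with medians of 0.05, 0.06 and -0.01, 11 of 14 above 0 against HI0 in each meal diet, and 0 with an unadjusted p below 0.05. The named genes were RARS (0.18) and MARS (0.23), then FARSB (0.12) and YARS (0.15), then MARS (0.17) and AARS1 (0.12). Of 23 other amino acid transporters, 17 were measured, with medians of 0.04, 0.09 and -0.02. SLC1A3 stood at 0.20 and SLC1A1 at -0.22, then SLC38A4 at 0.16 and SLC7A6 at 0.23, then SLC1A3 at 0.29 (passing unadjusted) and SLC38A4 at -0.12. The signal of SLC1A3 was dim, with diet means of 4.105 to 4.39, below the array medians of 7.23 to 7.31.

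Of 24 chaperones and folding enzymes of the endoplasmic reticulum, 19 were measured, with medians of -0.03, 0.02 and 0.00. CANX stood at -0.13 and the sensor kinase ERN1 at -0.17, then ERN1 at 0.21 and CANX at -0.09, then ERN1 at -0.37 ± 0.12 (SE; passing unadjusted) and DNAJB9 at -0.15. Of 12 genes of glutathione synthesis and breakdown, 10 were measured, with medians of 0.11, -0.01 and 0.08, and 9 of 10 lay above 0 in HI15 against HI0. ANPEP stood at 0.25 (passing unadjusted) and LAP3 at 0.12, then LAP3 at 0.10 and GCLM at -0.10, then ANPEP at 0.26 (passing) and GCLM at 0.23 (passing). Of 23 genes by which mTORC1 senses amino acids, 17 were measured, with medians of 0.06, 0.03 and -0.02 and 0 below an unadjusted p of 0.05. The named genes were EIF4EBP2 (0.20) and DEPTOR (0.15), then TSC2 (0.14) and SESN1 (0.16), then DEPTOR (0.18) and EIF4EBP2 (0.11).

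Genes that answer handling and the time since the last meal were measured beside these. Of 22 immediate early genes, 14 were measured, with medians of -0.07, 0.12 and -0.20, and in HI15 against HI7.5, 11 of 14 lay below 0. IER5 stood at -0.23 (passing unadjusted) and PER2 at 0.31, then KLF6 at 0.21 and NR4A3 at 0.38, then KLF6 at -0.35 (passing) and EGR1 at -0.73. The members had medians of 0.09, 0.14 and -0.18, of the opposite sign in HI15 against HI0 and of the same sign in the other comparisons. Between livers, the mean signal of the immediate early genes had r from -0.51 with SLC7A5 to 0.29 with ATF4. None of these relations passed the permutation test adjusted over 110 relations. Of 21 fasting and feeding genes, 15 were measured, with medians of -0.02, -0.05 and 0.03. INSIG2 stood at 0.29 (passing unadjusted) and MID1IP1 at -0.13, then INSIG2 at 0.29 (passing) and MID1IP1 at -0.09, then PCK1 at -0.96 and PPARGC1A at 0.34. The part of immediate early genes in the members' differences was not tested.

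The tissue matched its label by the hepatocyte markers, of which 9 of 10 were measured with a mean log2 signal of 13.60 to 13.74 in every liver. In whole liver, fewer cells of a type and less RNA per cell cannot be told apart. Over 11 sets of markers and state genes and 10 members, 110 relations between livers were computed, and none passed the permutation test adjusted over them. The smallest adjusted permutation p, 0.159, belonged to SLC38A2 with endothelial markers (r = 0.65, rho = 0.66) and with markers of pancreas and gut (r = -0.69, rho = -0.62). Of 6 endothelial markers, 5 were measured, and their mean signal lay between 8.72 and 9.59 in HI0, 8.90 and 9.67 in HI7.5, and 9.01 and 9.62 in HI15. Of 10 pancreas and gut markers, 4 were measured, and their mean signal lay between 5.67 and 6.30 over all livers. That is below the array medians of 7.23 to 7.31, so these signals do not show that such cells were present. The part of either marker set in the differences of SLC38A2 was not tested.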

How the data were processed

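Single-colour Affymetrix arrays of liver RNA labelled with biotin were read as deposited. Per the submitters' processing notes, the authors made the log2 signals with RMA in Affymetrix Expression Console 1.4; this removes background, equalises arrays and sums up the probes of each set, so overall shifts between arrays are gone. Array medians lay between 7.23 and 7.31, and arrays correlated at 0.966 to 0.990. The deposited table gives no detection values, and the number of arrays limits the precision. Genome build and probe positions are not given in the sources used here.

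Of 18226 probe sets, 12300 had 1 gene symbol in the platform annotation, 256 had several and 5670 are unnamed here. All 10 members matched the RefSeq gene table by gene ID. A gene with several was represented by its brightest set on average.

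Limma 3.58.1 (lmFit and eBayes, R 4.3.3) fitted a mean per diet over all 18 arrays, two-sided, with Benjamini-Hochberg adjustment over all probe sets and calls at 0.05. Exact permutation tests ran over 924 splits of 6 against 6, and relations between genes over 100000 permutations within diets (numpy 2.4.6, scipy 1.17.1). The fit was tested on simulated data. The 10 members and the 11 other lists were chosen with earlier results of these data known. All members were named, and of each other list the 2 measured genes with the smallest unadjusted p in each comparison. For the members on which relations turn, the 5 genes with the highest r were named. Replicate numbers follow the order of deposit. Alternatives were other normalizations, a filter on dim probe sets, a robust prior with a variance trend, weights per array, fits of 2 diets only, the last title number as a covariate or in runs as a block, and omission of single livers.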

Additional observations from a re-analysis of the deposited data

Results flagged for a closer look

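SLC7A5 in HI15 replicate 6 had a log2 signal of 8.49, while the other 5 HI15 livers lay around the group's median of 8.93. Its gap to the nearest liver was 0.685 of the range of the group, above Dixon's 95% critical value for 6 samples. Among 33 groups of 6 examined this way it was the 1 that passed, and chance gives about 1 in 20. The same liver had the highest ASNS signal of HI15. Without it, the difference of HI15 from HI7.5 in SLC7A5 was -0.12, against -0.20 with it.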

How the results depend on the processing

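In each of the 26 other fits, 0 members and 0 probe sets passed limma's adjusted test, and the smallest adjusted p of a member was 0.877. With 1 liver left out at a time, the sign of a member difference changed in 27 refits and stayed in 513. The differences that changed sign were close to 0 or, for ASNS and CHAC1, of wide spread. The ranges were -0.0957 to 0.0603 for ATF4, -0.119 to 0.0807 for PHGDH and -0.078 to 0.374 for ASNS in HI7.5 against HI0. They were -0.022 to 0.056 for PSPH, -0.089 to 0.041 for MTHFD2, -0.00233 to 0.134 for SLC7A5 and -0.072 to 0.34 for ASNS in HI15 against HI0. In HI15 against HI7.5 they were -0.413 to 0.0887 for CHAC1 and -0.0607 to 0.0243 for PSPH, and ASNS, at 0 with all livers, ran from -0.241 to 0.211. PSAT1 in HI7.5 against HI0 stayed between 0.38 and 0.51, and SLC38A2 in HI15 against HI7.5 between -0.56 and -0.37. Under other settings, PSPH in HI15 against HI0 was -0.0106 with quantile normalization and -0.0017 with the last title number as a covariate. ATF4 in HI7.5 against HI0 was 0.0092 with array medians subtracted and 0.0108 as the mean of its 2 probe sets, and PHGDH was 0.0058 with array weights. The cause was not tested.

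The 4 pairs past the threshold became 2 with Spearman's rho, 0 with quantile normalization (adjusted permutation p = 0.0524 for each of the 4), 0 without the 2 farthest livers and 0 to 5 with single livers left out. That last set, the spread with single livers left out and the split of the fasting and feeding list were chosen after seeing the data. With the runs of 6 in the last title numbers as a replicate block, r of the 4 pairs was 0.72 to 0.81. All 4 passed, but values were shuffled within diets only, with no allowance for the runs removed. The p-values of that permutation test can thus be too small, so the passing cannot show that the pairs are robust. In limma's fit with that block, 0 members were called between diets. Livers of 1 run did not pair: over 18 pairs their deviations correlated at -0.34 to 0.19 (median -0.08), and 1 of 18 livers was nearest to its own run. STC2 was left out under the filter on dim probe sets. On simulated data 66% of 1.5-fold and 6% of 1.3-fold changes in 200 probe sets drawn from all were recovered. No such rate was computed for the members. For 4 of 10 members in each comparison the 95% interval reached past 1.5-fold.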
